A study of Mus musculus with 2 samples.

Results

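Integrins are cell surface receptors made of 1 alpha and 1 beta subunit, and this account follows 8 integrin subunit genes of microglia, the resident macrophages of the brain: the alpha subunits Itgam, Itgav, Itga6, Itga4 and Itgal and the beta subunits Itgb2, Itgb1 and Itgb5. The 8 genes were taken by name from the 31053 genes listed in each count matrix, and each matched 1 identifier. Cells entered with a minimum of 500 unique molecular identifiers (UMIs, the tags that count captured RNA molecules) and 300 genes, and with no more than 10% of UMIs from the mitochondrial genome. In the brain, integrins hold microglia to extracellular matrix and to other cells, and they take part in phagocytosis. The product of Itgam (CD11b) pairs with that of Itgb2 (CD18) to form complement receptor type 3, which binds complement fragments and fibrinogen, a clotting protein of blood plasma.

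Microglia were sorted from the hypothalamus of young wild-type mice 20 hours after injection of a dye-labelled plasma protein, several mice being pooled. Cells that carried the dye (plasma-positive, called positive from here on) and cells that did not (plasma-negative, called negative) each gave 1 droplet library, and all cells came from injected mice. Strain, sex and the surface markers used in the sort are not given in the sources used here, so it is not known whether CD11b protein itself was used to select the cells. The labels name no uninjected animals.

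After filtering, 9860 negative cells with 34534518 UMIs and 10362 positive cells with 41984977 UMIs remained. The median cell had 3270.5 and 3753 UMIs, and the median mitochondrial share was 1.08% and 1.27%. All 11 microglia markers had a UMI in at least 64.4% of negative and 68.0% of positive cells, and 99.8% of cells in each library held at least 4 of them. No cell had the same counts in both libraries. With 1 library per group there is no replicate check on any difference below, no test was run, and every interval is a 95% interval for counting error only, which says nothing of how much mice, sorts or preparations vary.

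Transcripts of 6 of the 8 genes were abundant in these cells. Itgb5, Itgam, Itga6, Itgb1, Itgb2 and Itgav each exceeded at least 94.7% of the 18155 detected genes in level, whereas Itga4 and Itgal were close to absent. Levels are given as CPM, the UMIs of a gene divided by all UMIs of the library and multiplied by 1000000. A UMI counts a molecule near its 3' end whatever its length, so no length correction was made, although genes can differ in how well their 3' ends are captured.

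**Figure D1:**
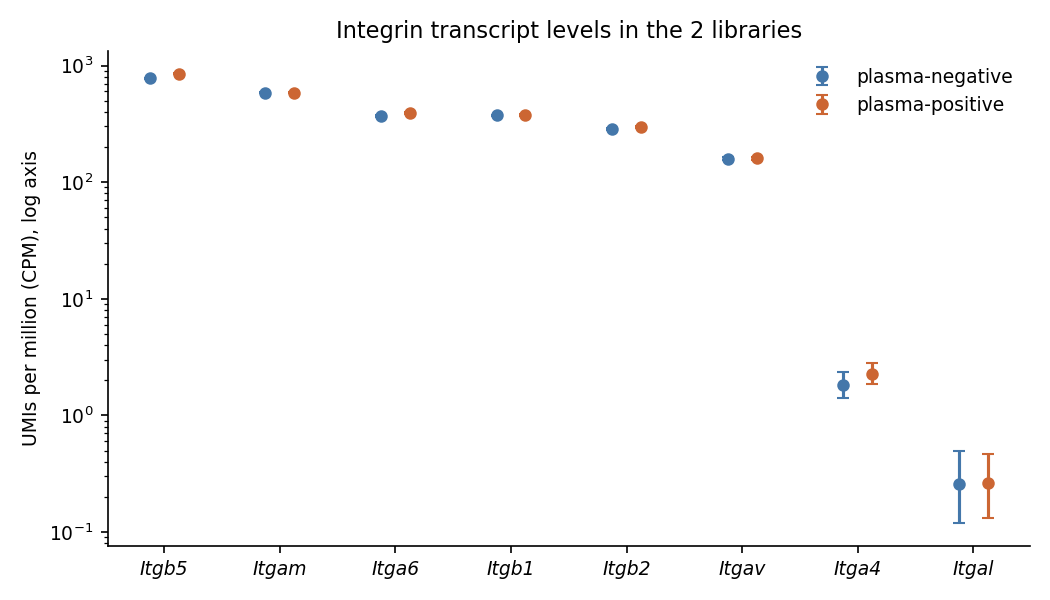
Transcript level of each integrin gene (CPM, log axis) in the negative (blue) and positive (orange) library, with exact Poisson 95% intervals, which are smaller than the points for the 6 abundant genes. These 6 lie between 159 and 849 CPM, and Itga4 and Itgal lie at or below 2.29 CPM in both libraries.

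Itgb5, a beta subunit that pairs with the alpha V subunit and binds vitronectin, was the most abundant, at 775 CPM (765 to 784, exact Poisson interval) in the negative and 849 CPM (841 to 858) in the positive library. Itgam followed at 586 CPM (578 to 594) and 584 CPM (577 to 592). The intervals of Itgam overlapped, and those of Itgb5 did not. Itgb1, the common beta subunit that joins many alpha subunits, was at 373 CPM (367 to 379.8) and 376 CPM (370.2 to 382). Itga6, which with Itgb1 forms a laminin receptor, was at 369 CPM (363 to 375) and 394 CPM (388 to 399.7). The order of this pair differed between libraries: Itgb1 had 1.01 (0.987 to 1.04) UMIs for each Itga6 UMI in the negative library, so the 2 levels did not differ beyond counting error there, and Itga6 had 1.05 (1.02 to 1.07) for each Itgb1 UMI in the positive library. Itgb2 was at 284 CPM (279 to 289.9) and 298 CPM (292 to 303). Itgav, the alpha V subunit, was the lowest of the 6, at 159 CPM (155 to 163) and 159.8 CPM (156 to 164). All other neighbours in the order of levels differed beyond counting error in both libraries.

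Together the 8 genes made up 0.255% of negative and 0.266% of positive UMIs, or 96.0% and 96.2% of the UMIs of all 27 integrin subunit genes looked up. Alpha subunits held 43.8% (43.5% to 44.1%) of the members' negative UMIs and 42.8% (42.5% to 43.1%) of their positive UMIs. Itgam and Itgb2 together held 34.1% and 33.1%. The receptor's 2 subunits were not counted in equal numbers, as Itgam had 2.06 (2.01 to 2.11) UMIs for each Itgb2 UMI in the negative and 1.96 (1.92 to 2.01) in the positive library. Itgav, by contrast, had 0.206 (0.200 to 0.212) and 0.188 (0.183 to 0.193) UMIs for each UMI of its partner Itgb5.

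Itga4, the alpha 4 subunit by which leukocytes bind the vascular adhesion molecule Vcam1, had 63 UMIs in the negative and 96 in the positive library, or 1.82 CPM (1.402 to 2.33) and 2.29 CPM (1.85 to 2.79). Itgal, the alpha L subunit that joins Itgb2 to form the lymphocyte receptor LFA-1, had 9 and 11 UMIs, or 0.261 CPM (0.119 to 0.495) and 0.262 CPM (0.131 to 0.469). For comparison, Itga2b, the platelet integrin subunit, had 4 and 5 UMIs, and Itgb7, a subunit of lymphocytes, had 14 and 15. In microglia Itga4 and Itgal were thus lower than Itgav, the least abundant of the 6 others, which had 87.3 (68.1 to 114) UMIs for each Itga4 UMI in the negative and 69.9 (57.2 to 86.4) in the positive library.

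Markers of blood-derived cells and of border macrophages were looked at beside these 2 genes. Of 7 monocyte markers, 4 had a UMI in the negative and 5 in the positive library, at a summed 3.996 and 3.81 CPM, with Ly6c2 and Chil3 at 0 in both. Of 7 T or NK cell markers, 1 had a UMI in each library, at 0.0869 and 0.0238 CPM in sum. Of 6 neutrophil markers, 1 and 0 had a UMI. Of 6 dendritic cell markers, 5 had a UMI in each library, at a summed 12.05 and 11.2 CPM. Of 7 border macrophage markers, 4 and 6 had a UMI, at 3.62 and 6.19 CPM in sum, with Lyve1 at 0 in both. Cells with at least 3 markers pooled over these 5 lists and a B cell list numbered 2 in the negative and 10 in the positive library. The 10 positive cells held 4.17% of the Itga4 UMIs of their library, at 49.7 CPM against 2.20 CPM in all other cells, and none of its Itgal UMIs. The 2 negative cells held no UMI of either gene. Positive cells with at least 2 of the markers had 2.74% of all UMIs, 9.38% of Itga4 and 18.2% of Itgal UMIs, and those with at least 1 had 26.6%, 40.6% and 63.6%. In negative cells these shares were 1.78%, 1.59% and 0% with at least 2 markers, and 23.7%, 30.2% and 22.2% with at least 1. Cells with at least 1 marker made up 21.9% of positive and 19.1% of negative cells, most of them through 1 gene of the B cell list. As 99.8% of all cells held at least 4 microglia markers, 1 marker of these lists does not set a cell's type. Itgal rests on 11 positive and 9 negative UMIs in all, and Itga4 on 96 and 63. The highest Itga4 count in any positive cell was 4, so a single cell could set the level of the 10 positive cells. Whether that cell was among the 10 was not examined. The part of cells with these markers in the Itga4 count was not tested further.

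All 8 genes are protein-coding and lie on the plus strand in GENCODE M21 on the mouse build GRCm38, which need not be the annotation the authors used. Itgam (ENSMUSG00000030786, chromosome 7, 128062640 to 128118491) and Itgal (ENSMUSG00000030830, chromosome 7, 127296260 to 127335138) share a chromosome. Itgav (ENSMUSG00000027087, 83724397 to 83806916), Itga6 (ENSMUSG00000027111, 71745616 to 71858416) and Itga4 (ENSMUSG00000027009, 79255426 to 79333123) are on chromosome 2. The beta subunits are scattered, with Itgb2 (ENSMUSG00000000290) on chromosome 10 from 77530252 to 77565708, Itgb1 (ENSMUSG00000025809) on chromosome 8 from 128685654 to 128733200, and Itgb5 (ENSMUSG00000022817) on chromosome 16 from 33829665 to 33949338. The gene model Gm49368 overlaps Itgam on the same strand and shares 3450 bases of its exons, but none of its last exon (128117306 to 128118491). Gm49368 had 402 and 492 UMIs of its own, and how reads shared by the pair were assigned is not given. These counts do not bound the effect of the overlap on the Itgam level, which is not known. The last exon of Itga4 shares 1124 bases with Cerkl on the opposite strand, which had 6 and 7 UMIs, and the use of strand in counting is not given.

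RefSeq promoter sequences (GRCm38.p6) were found for 5 of the 8 genes: Itgam, Itgb1, Itgb5, Itgav and Itga4. The 250 bases before the start were searched on both strands for GAGGAA, the core recognised by PU.1, a transcription factor of myeloid cells. It was found before Itgam (2 matches), Itgav (2) and Itgb1 (1), and not before Itgb5 or Itga4, and 23.3% of 32851 promoter windows of the same length held it. The windows of the 2 most abundant members and of the nearly absent Itga4 are shown 5′ to 3′ with matches, or their reverse complement, in capitals. They are chr7:128062390-128062639, chr16:33829415-33829664 and chr2:79255176-79255425, all on the plus strand.
Itgam: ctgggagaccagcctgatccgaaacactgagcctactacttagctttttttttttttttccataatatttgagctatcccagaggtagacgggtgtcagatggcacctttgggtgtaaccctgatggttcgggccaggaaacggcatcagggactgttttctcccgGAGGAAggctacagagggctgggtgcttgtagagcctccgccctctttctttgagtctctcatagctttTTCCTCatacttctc
Itgb5: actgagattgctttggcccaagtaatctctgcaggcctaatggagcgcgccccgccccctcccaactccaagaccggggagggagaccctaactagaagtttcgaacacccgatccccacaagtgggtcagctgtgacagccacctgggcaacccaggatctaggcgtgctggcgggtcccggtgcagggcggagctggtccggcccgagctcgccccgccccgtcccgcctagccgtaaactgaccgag
Itga4: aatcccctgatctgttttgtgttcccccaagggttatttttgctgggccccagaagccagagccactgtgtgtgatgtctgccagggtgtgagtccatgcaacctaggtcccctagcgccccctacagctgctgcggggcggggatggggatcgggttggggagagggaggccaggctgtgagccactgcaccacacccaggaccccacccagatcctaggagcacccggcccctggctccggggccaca
The presence of these letters did not follow the transcript level among the 3, as Itgb5, the most abundant member, and Itga4 both lacked them in this window.

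The main comparison set integrin transcripts of cells that carried plasma protein against those of cells that did not. Itgb5 was 1.097-fold (1.079 to 1.114, exact conditional binomial interval) higher in the positive library, Itga6 was 1.07-fold (1.04 to 1.09) higher and Itgb2 was 1.05-fold (1.02 to 1.08) higher. The other 3 abundant members had ratios close to 1 whose intervals held 1: Itgb1 at 1.01 (0.984 to 1.03), Itgav at 1.00 (0.969 to 1.04) and Itgam at 0.998 (0.979 to 1.02). Thus the subunits of the fibrinogen receptor differed by at most 1.08-fold between the libraries within counting error, Itgam by no more than 1.02-fold.

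Genes were compared where they reached 50 CPM in at least 1 library, which 6 of the 8 members did. None of the 6 was at 1.1-fold or more in either direction, where 7.18% of the 3540 compared genes were higher by that much and 11.5% lower. Of all compared genes 0.141% were higher by 1.5-fold or more and 0.113% by 2-fold or more, and 0 were lower by as much. The 254 genes higher and 408 lower by 1.1-fold became 355 and 251 with TMM scaling, and 352 and 316 with mitochondrial and ribosomal protein genes left out of the total. Under both of these Itgb5 was above 1.1-fold. The counting interval lay wholly above 1 for 3 of the 6 members and wholly below 1 for 0, against 19.9% and 34.5% of all compared genes. A gene with more UMIs has a narrower interval, and these shares were not matched for level. The median log2 ratio of the 6 was 0.04, beside -0.03 for all compared genes, whose quartiles were -0.09 and 0.04. On the log2 scale Itgb5 was at 0.13, above 92.5% of compared genes, Itga6 was at 0.09, above 86.7%, and Itgb2 was at 0.07, above 81.3%. Itgam, at 0.00, lay above 59.3%. These ranks are among all genes at 50 CPM or more, not among genes of like level. All of the 6 but Itgav exceeded 200 CPM. Of genes at 200 CPM or more, 141 were higher and 64 lower by 1.1-fold. More genes were thus higher than lower at that level, and the ranks may overstate how far these members stand apart. The summed members were 1.05-fold (1.04 to 1.05) higher in the positive library. Beside this, the 11 microglia markers had a median log2 ratio of -0.07.

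**Figure D2:**
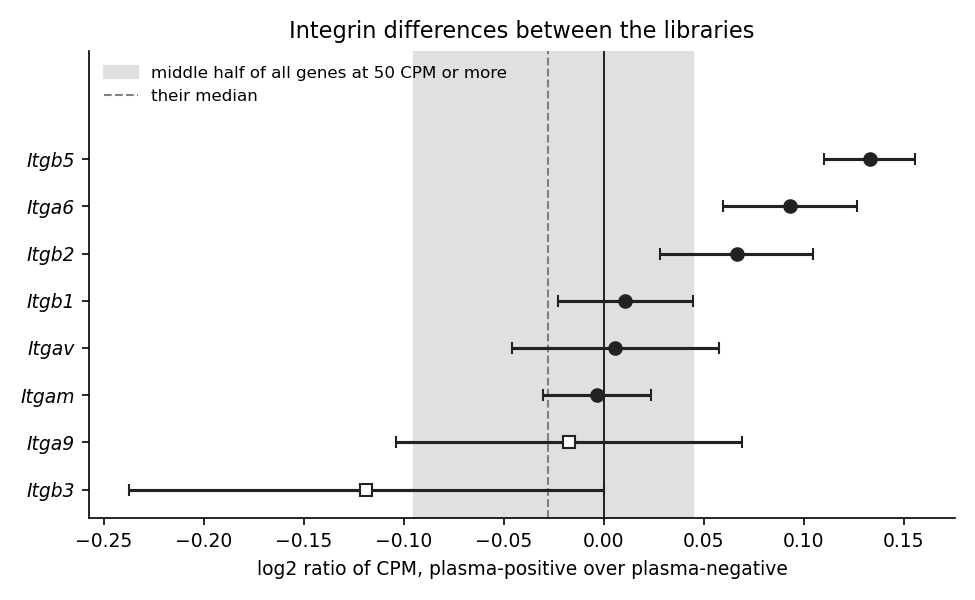
Log2 ratio of CPM, positive over negative, with exact conditional binomial 95% intervals, for the 6 members at 50 CPM or more (filled circles) and the other integrin subunits at 10 CPM or more (open squares). Itgb5, Itga6 and Itgb2 lie right of the grey band, which spans the quartiles of all genes at 50 CPM or more (-0.09 to 0.04), and Itgam lies on 0.

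The 2 members under 50 CPM gave wide intervals. The ratio was 1.253 (0.903 to 1.75) for Itga4 and 1.01 (0.379 to 2.74) for Itgal, so a difference of the size seen for Itgb5 was not detectable at this depth.

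The libraries differed in depth per cell and in mitochondrial share, so the ratios were also taken within 5 equal bins of all cells ranked by UMIs and by mitochondrial share. Itgb5 was higher in the positive library in every depth bin, from 1.06-fold (1.03 to 1.096) to 1.12-fold (1.06 to 1.19). By mitochondrial share its ratio ran from 1.12 (1.07 to 1.16) in the lowest bin to 1.03 (0.989 to 1.07) in the highest, the only one of these 10 intervals that held 1. Itga6 had ratios from 1.02 (0.974 to 1.07) to 1.095 (1.01 to 1.19) over bins of depth and from 1.04 (0.977 to 1.098) to 1.12 (1.06 to 1.17) over bins of mitochondrial share. Itgb2 lay between 1.01 and 1.06 in all 10 bins, and each of these intervals held 1. Itgam lay between 0.974 (0.944 to 1.01) and 1.04 (0.973 to 1.12) over depth, and between 0.956 (0.913 to 1.00) and 1.06 (1.01 to 1.11) over mitochondrial share. Itgam thus changed side of 1 between bins, whereas Itgb5, Itga6 and Itgb2 stayed above 1 in all of them.

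Within a library, CPM of some members moved with cell depth by more than the libraries differed. From the shallowest bin (501 to 2395 UMIs per cell) to the deepest (4858 to 28084), Itgam went from 541 to 628 CPM in negative and from 565 to 612 CPM in positive cells. Itgb1 went from 338 to 389 CPM and from 366 to 389 CPM. Neither rose at every step in positive cells, where both were lowest in the second bin, at 549 and 360 CPM. In negative cells Itgb1 rose at every step, whereas Itgam fell from 587 CPM in the third bin to 572 CPM in the fourth. Itgav did not end higher, going from 162 to 161 CPM in negative and from 184 to 168 CPM in positive cells. Its lowest level was in the second bin of both libraries, at 145 and 136 CPM, as was that of Itgb2, Itga6 and Itgb5.

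**Figure D3:**
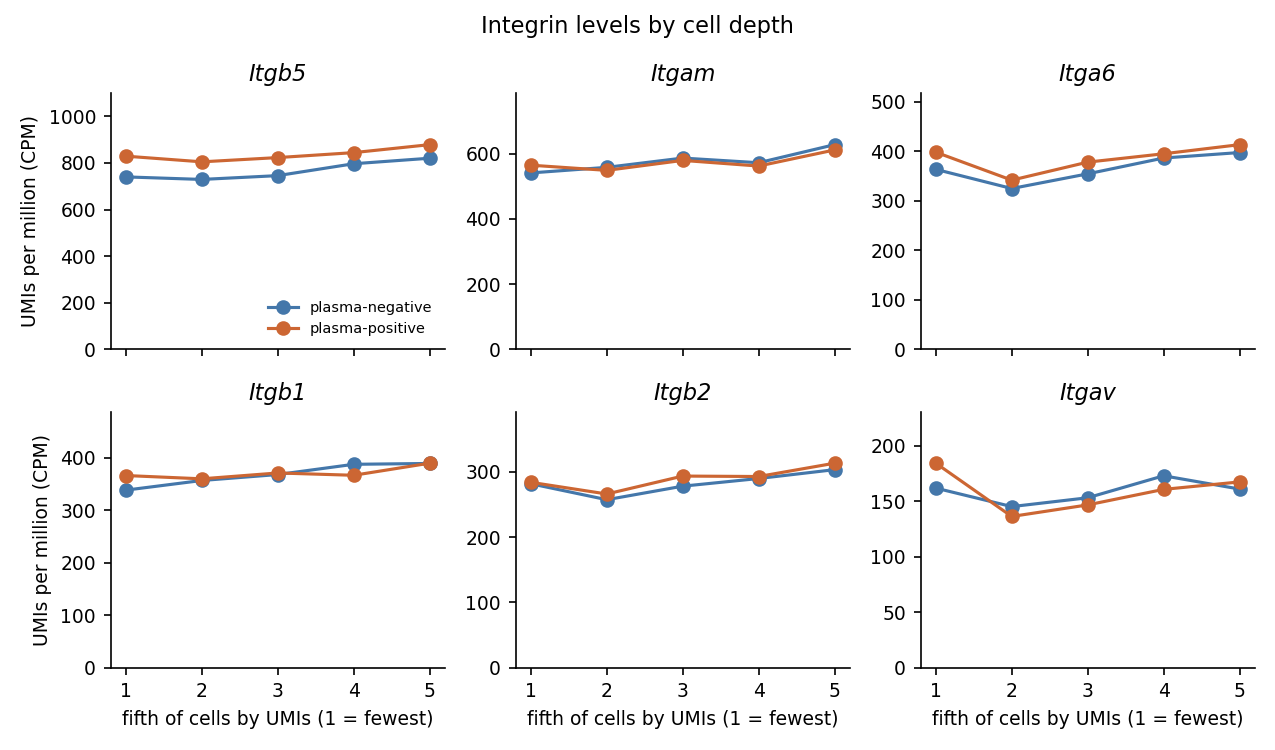
CPM of the 6 abundant integrin genes in 5 equal bins of all cells ranked by UMIs per cell (1 = fewest), for negative (blue) and positive (orange) cells. The Itgb5 lines stay apart in all 5 bins, whereas the Itgam lines cross (541 and 565 CPM in the first bin, 628 and 612 CPM in the last).

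Counted cell by cell, a UMI of Itgb5 was seen in 84.5% of negative and 89.5% of positive cells, and one of Itgam in 76.0% and 79.3%. These shares follow depth, so each cell was also thinned to 1000 UMIs, which left out 796 negative and 603 positive cells with fewer. After thinning, Itgb5 was seen in 52.2% (51.2% to 53.2%, exact binomial) of 9064 negative and 55.7% (54.7% to 56.7%) of 9759 positive cells. Itgam was seen in 41.5% (40.5% to 42.5%) and 42.1% (41.1% to 43.1%), and Itgb2 in 23.3% (22.4% to 24.2%) and 25.1% (24.2% to 26.0%). At this depth the intervals of Itgb5, and narrowly those of Itgb2, did not overlap. For Itgb1 the shares were 29.8% and 30.5%, for Itga6 28.9% and 29.97%, and for Itgav 14.2% and 13.9%, and for these the intervals overlapped. With cells thinned to 2000 UMIs, the intervals of Itgb5 stayed apart, at 75.6% to 77.5% and 78.8% to 80.5%. Those of Itgb2 then overlapped, at 40.1% to 42.2% and 41.1% to 43.2%. Those of Itga6 did not, at 46.6% to 48.8% and 49.1% to 51.2%. Which of these 2 genes was set apart thus changed with depth. The share of all genes with intervals apart is not given. Without thinning, the shares were 62.9% and 69.0% for Itgb1, 61.5% and 67.7% for Itga6, 55.6% and 61.5% for Itgb2, and 38.1% and 42.5% for Itgav.

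Itga4 was seen in 0.143% (0.0764% to 0.245%) of thinned negative and 0.277% (0.182% to 0.402%) of thinned positive cells, and Itgal in 0.0441% (0.0120% to 0.113%) and 0.0307% (0.00634% to 0.0898%). Without thinning these shares were 0.588% and 0.772% for Itga4, and 0.0913% and 0.0869% for Itgal. Other cell types were too few to show which share of cells free RNA in the droplets would mark.

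**Figure D4:**
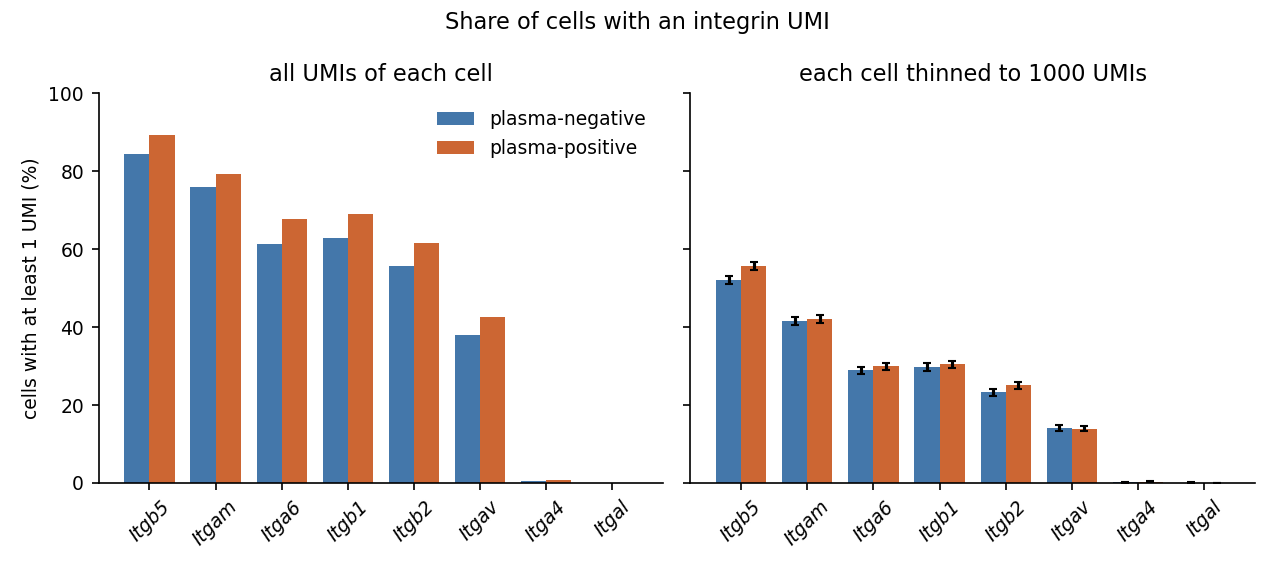
Share of cells with at least 1 UMI of each integrin gene, with all UMIs (left) and after thinning each cell to 1000 UMIs (right, with exact binomial 95% intervals), in negative (blue) and positive (orange) cells. The gap between libraries seen on the left for Itgb1, from 62.9% to 69.0%, shrinks to 29.8% against 30.5% on the right.

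The variance of thinned counts divided by their mean, which is 1 where counts scatter at random around 1 common level, lay between 1.03 (Itgb2, positive cells) and 1.13 (Itgam, positive cells) for the 6 abundant genes in both libraries at 1000 UMIs per cell. At 2000 UMIs it reached 1.20 for Itgam in negative cells and 1.21 for Itga6 in positive cells. The ratio comes nearer to 1 as counts get fewer, so the values at 1000 UMIs do not show that the genes were evenly spread over the cells. Thinned cells held a median of 2 of the 8 genes in both libraries. No UMI of any member was seen in 9.77% of thinned negative and 8.91% of thinned positive cells, against 1.78% and 0.975% with all UMIs counted.

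Transcripts of the receptor's 2 subunits were seen together about as often as their separate shares give. Itgam and Itgb2 were both seen in 9.40% (8.81% to 10.0%) of thinned negative and 10.8% (10.2% to 11.4%) of thinned positive cells, and the products of the separate shares were 9.67% and 10.6%. Of cells with Itgam, 22.6% of negative and 25.7% of positive cells also had Itgb2, against 23.8% and 24.7% of cells without Itgam. Itga6 and Itgb1 were seen together in 8.51% and 9.47% of cells, with products of 8.61% and 9.13%. Itgav and Itgb5 were seen together in 7.37% and 7.73%, with products of 7.39% and 7.74%. Itgal with Itgb2 was seen in 2 negative and 1 positive thinned cell.

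Across cells, no gene followed a member closely. For each member, Pearson's r of log counts after thinning was taken with every compared gene over the 9064 negative and the 9759 positive cells, and genes were ranked by the lower of the 2 values. The highest was for Itgam with Cx3cr1, the fractalkine receptor of microglia, at 0.0839 and 0.0753. Next for Itgam came Malat1, at 0.0553 and 0.0563, and Epb41l2, at 0.0545 and 0.0424. The first gene was Glg1 for Itgb2, Csf1r for Itgb1, Vsir for Itgb5, Malat1 for Itgav and Nav3 for Itga6, with lower values of 0.0281, 0.0280, 0.0320, 0.0425 and 0.0516. For the nearly absent Itga4 and Itgal, Hps3 and Ap2m1 came first, at 0.0222 and 0.0336. Between Itgam and Itgb2 themselves r was -0.01 and 0.01. The cells of a library share its preparation, and in counts this sparse such values are no more than a description.

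Levels were then compared between cells high in a response transcript and cells without it. Cells with at least 3 thinned UMIs of Apoe, which encodes the lipid carrier apolipoprotein E, numbered 151 in the negative and 650 in the positive library, and cells with 0 numbered 8379 and 7936. These are ranges of a count and not cell types, and 111 and 251 cells lay 1 UMI under the limit. In positive cells Itgav was at 105 CPM in Apoe-high against 159.8 CPM in Apoe-free cells, a ratio of 0.655 (0.505 to 0.836). Itga6 was at 286 against 381 CPM, a ratio of 0.750 (0.644 to 0.870), and Itgb1 at 285 against 377 CPM, a ratio of 0.756 (0.648 to 0.877). In the same cells Itgam was at 582 against 578 CPM, a ratio of 1.01 (0.903 to 1.12), and Itgb2 at 295 against 289 CPM, a ratio of 1.02 (0.877 to 1.18). Itgb5 had a ratio of 0.918 (0.837 to 1.01). The alpha V, alpha 6 and beta 1 transcripts were thus lower in Apoe-high positive cells, while the intervals of the fibrinogen receptor pair held 1. With cells thinned to 2000 UMIs, which left 895 Apoe-high positive cells, the ratios were nearer to 1, at 0.755 (0.654 to 0.868) for Itgav, 0.852 (0.781 to 0.927) for Itga6 and 0.899 (0.825 to 0.979) for Itgb1. At 2000 UMIs Itgam, at 0.930 (0.868 to 0.995), also lay below 1, so the split was not the same at both depths.

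In negative cells, with fewer Apoe-high cells, the ratio was 0.727 (0.518 to 0.992) for Itga6, 0.868 (0.639 to 1.15) for Itgb1 and 0.989 (0.632 to 1.48) for Itgav. The interval lay below 1 for Itga6 alone. At 2000 UMIs, with 275 Apoe-high negative cells, it lay below 1 for Itga6, at 0.835 (0.711 to 0.976), and Itgb2, at 0.755 (0.622 to 0.909). Whether the libraries differ in these ratios was not tested.

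**Figure D5:**
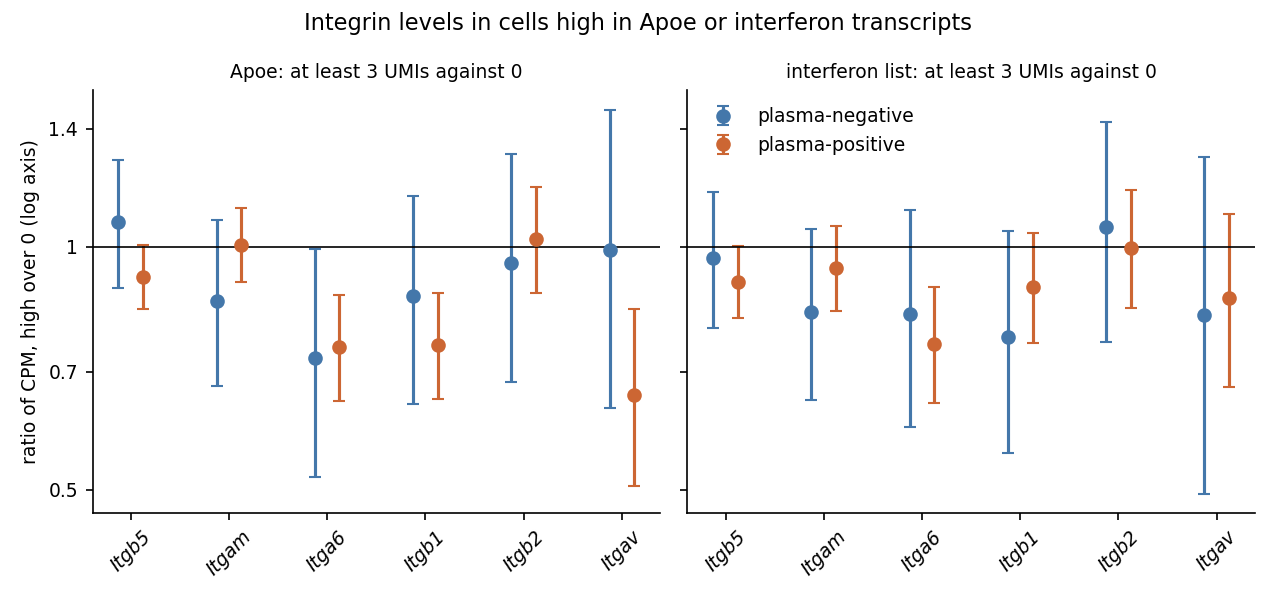
Ratio of integrin CPM (log axis) in cells with at least 3 thinned UMIs of Apoe (left) or of the 15-gene interferon list (right) over cells with 0, in negative (blue) and positive (orange) cells, with exact conditional binomial 95% intervals. In positive cells Itga6 lies below 1 in both panels, at 0.750 and 0.757, and all Itgam intervals hold 1.

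Cells with at least 3 thinned UMIs of 15 interferon-induced genes numbered 147 negative and 527 positive. Itga6 was at 294 against 388 CPM in positive cells with and without these transcripts, a ratio of 0.757 (0.640 to 0.891), and at 299 against 363 CPM in negative cells, a ratio of 0.825 (0.598 to 1.11). Itgam had ratios of 0.941 (0.832 to 1.06) in positive and 0.830 (0.645 to 1.05) in negative cells. At 2000 UMIs, with 984 interferon-high positive cells, 4 members lay below 1: Itgav at 0.782 (0.682 to 0.895), Itga6 at 0.876 (0.805 to 0.951), Itgam at 0.927 (0.868 to 0.990) and Itgb5 at 0.937 (0.887 to 0.989). The 2 ranges overlapped, as 143 positive cells, 22.0% of the Apoe-high and 27.1% of the interferon-high cells, were in both. In these 143 cells, against positive cells without either, the ratio was 0.525 (0.351 to 0.756) for Itga6, 0.558 (0.376 to 0.7996) for Itgb1 and 0.553 (0.293 to 0.951) for Itgav, from 29, 30 and 13 UMIs. In the 274 Apoe-high positive cells without interferon transcripts it was 0.888 (0.714 to 1.09), 0.777 (0.614 to 0.972) and 0.778 (0.538 to 1.09).

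Of 84 ratios, for 6 members in 7 ranges of cells and 2 libraries, 8 had an interval below 1 and 1 had an interval above 1, each interval holding at 95% on its own. At 2000 UMIs, where the same limits take in more cells, 20 of the 84 lay below 1 and 1 above. The share of all compared genes with such intervals in these ranges is not given. Whether the members stand out from other genes here is therefore not known. Besides those given, Itga6 was at 132 against 385 CPM in 91 positive cells with at least 3 UMIs of MHC class II genes, a ratio of 0.342 (0.177 to 0.599) from 12 UMIs, and thinning to 2000 UMIs, with 370 such cells, gave 0.722 (0.626 to 0.829). In negative cells the Itga6 ratio was 0.791 (0.482 to 1.22), and 0.790 (0.678 to 0.915) at 2000 UMIs with 331 such cells, so at that depth it lay below 1 in both libraries. In the 26 negative cells with at least 2 UMIs of Lpl, Spp1 or Cst7, the ratio of Itgb2 was 2.25 (1.29 to 3.66) and that of Itga6 was 0.319 (0.0657 to 0.932), from 16 and 3 UMIs. At 2000 UMIs, with 81 such cells, these ratios were 0.968 (0.699 to 1.31) and 0.939 (0.704 to 1.23), which both hold 1. At that depth Itgb5 lay below 1 in the negative cells, at 0.819 (0.666 to 0.996), and Itga6 in the 98 positive ones, at 0.649 (0.479 to 0.858). Itgam had a ratio of 0.865 (0.751 to 0.993) in positive cells with at least 3 UMIs of immediate early genes, against 1.09 (0.970 to 1.23) in negative cells, and 0.955 (0.901 to 1.01) in positive cells at 2000 UMIs. Dividing cells, 11 and 39 by this rule, and cells with at least 3 UMIs of Ccl3 and Ccl4, 16 and 32, gave no interval apart from 1 at 1000 UMIs. At 2000 UMIs the 65 dividing positive cells had Itgam at 0.703 (0.525 to 0.923) and Itgb5 at 0.798 (0.639 to 0.985), and the 39 dividing negative cells had Itgb1 at 1.4015 (1.0001 to 1.91). The 41 positive cells with Ccl3 and Ccl4 transcripts had Itga6 at 0.476 (0.266 to 0.786) and Itgb5 at 0.686 (0.504 to 0.913).

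Of the 19 other integrin subunits, Itga9 and Itgb3 reached 10 CPM. Itga9 was at 57.4 and 56.7 CPM, a log2 ratio of -0.02 (-0.10 to 0.07). Itgb3, the beta 3 subunit that joins alpha V, was at 31.7 and 29.2 CPM, a log2 ratio of -0.12 (-0.24 to 0.00). Itga8, Itga7, Itgb6 and Itgb2l had 0 UMIs in both libraries, which allows up to 0.0869 CPM in the negative and 0.0715 CPM in the positive library at 3 counts. Itgb8, whose product activates TGF-beta, had 3 and 4 UMIs. Itgax (CD11c), the other alpha subunit of a complement receptor with Itgb2, was named after its values were seen. It had 115 UMIs (3.33 CPM) in the negative and 264 (6.29 CPM) in the positive library, a log2 ratio of 0.92 (0.60 to 1.246). By Apoe range, with cells grouped by thinned UMIs as above, Itgax was counted from all UMIs of the cells and not from thinned ones. In positive cells Itgax was at 21.4 CPM (16.7 to 27.1) in Apoe-high and 4.60 CPM (3.90 to 5.39) in Apoe-free cells. In negative cells it was at 6.77 CPM (1.84 to 17.3) from 4 UMIs and 2.98 CPM (2.40 to 3.65).

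The genes that act with integrins inside the cell gave small differences as well, with log2 ratios here read against a median of -0.04 over the 8355 genes at 10 CPM or more. Of 15 activators and adaptors, 13 reached 10 CPM, with a median log2 ratio of -0.05, 4 higher and 9 lower, and none at 1.1-fold. Tln1 (talin), which binds beta subunit tails and switches integrins on, was at 337 and 361 CPM, a log2 ratio of 0.10 (0.07 to 0.14), and Fermt3 (kindlin-3), its partner in blood cells, at 213 and 222 CPM, a log2 ratio of 0.07 (0.02 to 0.11). Itgb1bp1, a regulator of Itgb1, was at 0.08. Apbb1ip (RIAM), which links the small GTPase Rap1 to talin, and Fyb, an adaptor of the same complex, were lowest, both at -0.09.

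Of 13 adhesion linkers, 11 reached 10 CPM, with a median of 0.05 and 2 at 1.1-fold or more higher, where 6.82% of all genes at 10 CPM or more were. The actin crosslinkers Actn4, at 0.17, and Flna, at 0.15, were highest, and Actn1, at -0.11, and the kinase-like adaptor Ilk, at -0.10, were lowest. Of 12 kinases and signalling genes, 10 reached 10 CPM, with a median of 0.04 and 2 at 1.1-fold or more higher. These were the adaptors with an activation motif, Tyrobp, from 2673 to 2997 CPM at a log2 ratio of 0.17 (0.15 to 0.18), and Fcer1g, at 0.14. Syk, the kinase they recruit, was lowest at -0.04, and Vav1 was at -0.01.

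Among ligands and partners, transcripts of the fibrinogen chains Fga, Fgb and Fgg had 0 UMIs in both libraries. Of the 18 genes of this list, 6 reached 10 CPM, with a median of -0.03, 1 higher and 5 lower. Of those below 10 CPM, named after their values were seen, Spp1 (osteopontin), a ligand of alpha V integrins, had 37 and 114 UMIs, a log2 ratio of 1.34 (0.80 to 1.92), and Thbs1 (thrombospondin-1), a secreted matrix protein, had 137 and 218, a log2 ratio of 0.39 (0.07 to 0.71). Hmgb1, a nuclear protein that can act outside cells, was highest at 0.08, and Cd47, a membrane partner of integrins, followed at -0.02. Nrros, which holds latent TGF-beta at the microglial surface for release by integrins, was lowest, at 125 and 113 CPM, a log2 ratio of -0.15 (-0.21 to -0.09). It was the 1 gene of the list at 1.1-fold or more lower, where 16.5% of all genes at 10 CPM or more were. Mfge8, a bridge between dying cells and alpha V integrins, was at -0.10 (-0.28 to 0.07).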

How the data were processed

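The deposited values were UMI counts for each gene in each cell. Per the file headers they came from Cell Ranger 6.1.2, and the submitters' processing notes name version 3.0.1. Version 3.1 of the droplet kit for 3' ends was used, per the labels' protocols. Genome build, annotation, strand and the handling of shared reads are not given in the sources used here. The matrices listed only called cells, and cell barcodes were not used. The gene minimum removed 1 plasma-negative cell, and the mitochondrial limit 17 plasma-negative and 28 plasma-positive cells. Scrublet (scanpy 1.11.5) marked 0 doublets per library and was taken to have failed, and doublets were kept. Removing the highest scores at the expected rates of 7.89% and 8.29% was an alternative.

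Counts were summed per library and divided by the library total, with no pseudocount. Thinning was without replacement. Intervals were computed with scipy 1.17.1 and checked on simulated counts. Intervals cover counting error only. The other tools were numpy 2.4.6, pandas 2.3.3, Python 3.11.15 and, for TMM scaling factors, edgeR 4.0.16. GENCODE M21 held 31011 of the 31053 identifiers. Named genes were the 8 members, other integrins at 10 CPM or more, the 2 highest and 2 lowest ratios of each list with Fga, Fgb, Fgg, Tln1 and Fermt3, and the 3 genes most alike to each member, of which the text gives all 3 for Itgam and the first for the others. Itgax, Itgb8, Itga2b, Itgb7, Spp1 and Thbs1 fall outside this rule and were named after their values were seen. Members and lists were chosen with earlier results of these data known. Values of the B cell marker list are not reported here.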

Additional observations from a re-analysis of the deposited data

How the results depend on the processing

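Of 596 recomputed values, 467 stayed within limits set around the reported value and 129 moved further. Many of the 129 were shares of cells that rise with depth by construction. The limits were the counting interval, or 1.5 times for counts of genes. For list medians they ran from the median lower limit to the median upper limit of the listed genes. That range is not a counting interval of the median. Each recomputed value was planned. No paired analysis was possible because no test was run on the single library of each group, and no alternative could leave out a replicate. Over 9 settings the log2 ratio lay between 0.13 and 0.16 for Itgb5, 0.05 and 0.12 for Itga6, 0.06 and 0.09 for Itgb2, -0.01 and 0.03 for Itgam, and -0.06 and 0.03 for Itgav. It lay between 0.28 and 1.05 for Itga4 and between -0.52 and 0.62 for Itgal. The direction is not known for either gene. For Itgal the sign changed between settings. For Itga4 the settings drew on the same few UMIs, and the main interval, -0.15 to 0.81, spanned both directions. TMM scaling moved the median of all compared genes by 0.03, gave a log2 ratio of 0.089 for the summed members, put 1 member (Itgb5) at 1.1-fold or more higher and left 251 genes 1.1-fold lower. Leaving mitochondrial and ribosomal protein genes out of the total gave 0.084 for the summed members and likewise 1 member at 1.1-fold or more higher. Comparing genes at 10 CPM or more gave 570 at 1.1-fold, 27 at 1.5-fold and 19 at 2-fold higher, with 1380 at 1.1-fold and 2 at 1.5-fold lower. Comparing genes at 200 CPM or more gave 141, 2 and 2 higher and 64 at 1.1-fold lower. The minimum sets how many genes are compared, and the balance of directions changed with it. At 10 CPM more genes were lower than higher by 1.1-fold, and at 200 CPM more were higher than lower. Cells with no member UMI made up 1.05% and 0.801% at 2000 UMIs per cell, 1.78% and 0.975% without thinning, and 60.6% and 59.4% where 2 UMIs of a gene were required. Itgam with Itgb2 was seen in 26.9% and 27.5% of cells at 2000 UMIs. In plasma-negative Apoe-high cells, the members with an interval below 1 numbered 2 at 2000 UMIs and 0 with the highest Scrublet scores removed, and the cause was not tested.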
